A study of Homo sapiens with 8 samples.

Results

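The signals of CRABP1 and 8 further genes of retinoid handling were followed across stable HEK293T lines that carried a targeted or untargeted TET1 catalytic domain. The genes were CRABP1, CRABP2, ALDH1A1, ALDH1A2, CYP26A1, CYP26B1, RARB, RARRES1, and RARRES2, which are 9 of the 19455 genes named on the array. They were chosen by gene symbol through the RefSeq transcript in the array design, which gave 13 of the 34071 probes used. CRABP1 was a known entry among the genes that the study picked from these same arrays, and the choice was made with these values known, so the values of the 9 genes are described without a test.

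HEK293T is a line derived from human embryonic kidney. RNA from 8 stable lines was labeled with Cy3 and hybridized to 8 single-color Agilent Human Gene Expression arrays, with 2 lines for each of 4 plasmids. The control clones were empty vector #1 and #2, the untargeted ones TET1-CDwt #2 and #5, the targeted ones MBD-TET1-CDwt #3 and #10, and the inactive ones MBD-TET1-CDmut #9 and #10. All lines, including the controls, were selected with blasticidin S, and each was expanded from 1 picked colony, so the spread between 2 lines of a plasmid is a spread between clones. TET1 oxidizes 5-methylcytosine, and TET1-CDwt consists of its catalytic domain. MBD-TET1-CDwt is the same domain joined to the methyl-CpG-binding domain of MBD2, and MBD-TET1-CDmut is that fusion with an inactive catalytic domain.

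Retinoic acid is made from vitamin A. Retinol enters cells and is bound by retinol-binding proteins, retinal is oxidized to retinoic acid by the ALDH1A enzymes, CRABP1 and CRABP2 bind retinoic acid in the cytoplasm, and CYP26 enzymes break it down. Retinoic acid receptors such as RARB act in the nucleus as ligand-dependent transcription factors. Several of these genes, RARB and RARRES1 among them, are known for promoter methylation in tumors, and the study asked whether the targeted catalytic domain raises the expression of methylated genes.

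The promoter windows of 4 genes are shown because methyl-CpG is the target of the MBD and because these genes gave 3 different patterns of signal. CRABP1 had a probe with signal in MBD-TET1-CDwt alone. RBP7, a cellular retinol-binding protein outside the 9 genes, had a similar probe that was also well above background in empty vector #2. CRABP2 was bright in all lines and RARRES1 was dim in all lines. Each window runs 5′ to 3′ on the gene's strand from 250 bases before to 50 bases after the start (RefSeq, GRCh38.p14), with every CpG in capitals.
CRABP1: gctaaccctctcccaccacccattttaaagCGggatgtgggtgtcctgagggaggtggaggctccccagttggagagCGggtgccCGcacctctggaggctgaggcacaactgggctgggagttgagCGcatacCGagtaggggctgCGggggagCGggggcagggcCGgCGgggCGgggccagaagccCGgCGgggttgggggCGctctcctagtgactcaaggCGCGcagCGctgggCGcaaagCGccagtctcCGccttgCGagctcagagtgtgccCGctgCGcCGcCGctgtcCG
RBP7: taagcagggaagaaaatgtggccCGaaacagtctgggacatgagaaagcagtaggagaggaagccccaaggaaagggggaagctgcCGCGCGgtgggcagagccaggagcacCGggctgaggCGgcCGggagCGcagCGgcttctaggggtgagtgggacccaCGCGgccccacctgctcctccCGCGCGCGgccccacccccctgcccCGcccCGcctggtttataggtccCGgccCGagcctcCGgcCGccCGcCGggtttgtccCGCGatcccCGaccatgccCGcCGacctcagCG
CRABP2: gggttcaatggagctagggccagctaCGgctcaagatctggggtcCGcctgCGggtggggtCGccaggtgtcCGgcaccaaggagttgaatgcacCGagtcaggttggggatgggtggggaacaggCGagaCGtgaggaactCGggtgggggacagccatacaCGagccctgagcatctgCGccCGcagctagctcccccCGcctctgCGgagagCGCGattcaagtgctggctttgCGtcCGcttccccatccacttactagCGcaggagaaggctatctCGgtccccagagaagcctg
RARRES1: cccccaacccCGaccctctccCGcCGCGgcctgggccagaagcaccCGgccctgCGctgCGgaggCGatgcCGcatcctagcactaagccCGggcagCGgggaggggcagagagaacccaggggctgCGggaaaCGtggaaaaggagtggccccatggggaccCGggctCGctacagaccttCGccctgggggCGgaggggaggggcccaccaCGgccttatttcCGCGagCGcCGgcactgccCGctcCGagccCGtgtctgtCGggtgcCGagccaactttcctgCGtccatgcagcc

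The CRABP1 window lies at chr15:78340103-78340402 on the plus strand, and holds 25 CpG sites with a GC content of 70.3%. The RBP7 window, at chr1:9996978-9997277 on the plus strand, holds 29. The CRABP2 window, at chr1:156705735-156706034 on the minus strand, holds 20, and the RARRES1 window, at chr3:158732408-158732707 on the minus strand, holds 28. Over all 35116 RefSeq windows the median was 14 CpG sites, and 32.0% held at least as many as CRABP1. All 9 genes had a window, 14 in all, because RARB has 4 and CYP26A1 and ALDH1A2 have 2 each. The windows of ALDH1A2 held 1 and 41 CpG sites, and those of RARB between 1 and 33. Whether CpG number relates to signal was not tested. DNA methylation was not measured on these arrays.

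All values below are log2 signals minus the 75th percentile of their array, so that 0 is the level of the 75th percentile probe. The intensity at that percentile was 328 to 527, between 63.2% and 68.2% of probes were well above background, and the lowest such signal lay between -6.01 and -5.51. All 6 markers reported in HEK293T (PAX2, LHX1, NEFM, NEFL, KRT18, and VIM) were well above background on both arrays of every construct, whereas HBB, CD3E, ALB, TTR, COL1A2, and COL3A1 were on none. Of the mature kidney markers AQP1 and UMOD were also present in every construct. Both TET1 probes and both MBD2 probes were above background on all 8 arrays, none rose with the constructs that carry these domains after adjustment, and where these probes lie relative to the cloned parts is not given in the sources used here, so they do not check the labels. Slide 1 held the empty vector and TET1-CDwt lines, and slide 2 held both fusions. Construct and slide therefore cannot be told apart when a fusion is compared with a line of slide 1, whether TET1-CDwt or empty vector. MBD-TET1-CDwt and MBD-TET1-CDmut shared slide 2.

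CRABP1, the cytoplasmic retinoic acid-binding protein, was represented by 2 probes of the same transcript that disagreed in size. The probe A_33_P3326483 was well above background only in MBD-TET1-CDwt, at -4.20 in #3 and -3.10 in #10. It was dim at -7.63 and -7.86 in empty vector, at -7.86 and -7.79 in TET1-CDwt, and at -7.37 and -7.42 in MBD-TET1-CDmut. Thus both MBD-TET1-CDwt clones were above the 6 other lines with no overlap, and #10 was above #3 by 1.10.

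The mean of A_33_P3326483 was -3.65 ± 0.78 in MBD-TET1-CDwt and -7.74 ± 0.16 in empty vector (SD, n = 2 each), a difference of 4.10. Because the lower group gave no signal above background, the fold is a bound: relative to empty vector, CRABP1 was at least 4.82-fold higher, relative to TET1-CDwt at least 4.81-fold higher, and relative to MBD-TET1-CDmut, which shared its slide, at least 3.69-fold higher. The measured signals gave 17.1-, 18.1-, and 13.4-fold, and these rest on the dim readings. In intensity units this is a weak signal, 19.1 in #3 and 38.3 in #10 against 1.78 to 2.27 in the other lines. A background correction that adds 50 to every signal therefore reduced the difference from empty vector to 0.71, and the planned normexp correction, whose background estimate failed for empty vector #2 and MBD-TET1-CDmut #10, turned it to -0.81.

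The other CRABP1 probe, A_33_P3216869, was well above background on all 8 arrays. It read -3.33 and -3.44 in empty vector, -3.47 and -3.54 in TET1-CDwt, -3.19 and -2.90 in MBD-TET1-CDwt, and -3.23 and -3.42 in MBD-TET1-CDmut. Both MBD-TET1-CDwt clones were again the highest, but the mean differed from empty vector by only 0.34. The 2 probes correlated with r = 0.886 over the 8 arrays. Because A_33_P3326483 was dim in all lines except MBD-TET1-CDwt, this r mainly restates that the same 2 clones were highest. It is not separate evidence that the probes agree. Why they differ in size was not tested, and the position of each probe on the transcript is not in the files.

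CRABP2, which carries retinoic acid to its nuclear receptors, was bright in every line by A_23_P115064. This probe read 2.17 and 2.55 in empty vector, 2.41 and 2.01 in TET1-CDwt, 1.71 and 2.32 in MBD-TET1-CDwt, and 2.03 and 2.34 in MBD-TET1-CDmut. The groups overlapped in each comparison with MBD-TET1-CDwt. A_33_P3294826, designed on another CRABP2 transcript, was -4.39 and -4.20 in MBD-TET1-CDwt and between -4.06 and -3.87 in the other lines. This second probe was therefore lower in both MBD-TET1-CDwt clones than elsewhere, by 0.42 from empty vector.

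Of the enzymes that make retinoic acid, ALDH1A2 was similar in all lines. Its probe read -3.13 and -3.02 in empty vector, -2.68 and -3.29 in TET1-CDwt, -2.91 and -3.18 in MBD-TET1-CDwt, and -2.50 and -3.28 in MBD-TET1-CDmut. The difference of MBD-TET1-CDwt from empty vector was 0.03, smaller than the SD of 0.15 for one clone. ALDH1A1 had 1 probe above background, A_33_P3379644, at -3.79 and -4.00 in empty vector, -4.27 and -4.46 in TET1-CDwt, -4.50 and -4.11 in MBD-TET1-CDwt, and -3.44 and -3.85 in MBD-TET1-CDmut. Lines with an active catalytic domain lay below the other 4, but narrowly: the highest of them read -4.11 and the lowest of the others -4.00. The mean of MBD-TET1-CDwt differed from that of MBD-TET1-CDmut by -0.67, with an SD of 0.28 for 1 clone. Whether this order exceeds the spread between clones was not tested. The other ALDH1A1 probe, A_23_P83098, was not well above background on any array.

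Of the enzymes that break retinoic acid down, CYP26A1 was measured in every line. It read -0.93 and -1.27 in empty vector, -0.56 and -1.33 in TET1-CDwt, -0.74 and -0.54 in MBD-TET1-CDwt, and -0.74 and -1.15 in MBD-TET1-CDmut. MBD-TET1-CDwt was higher than empty vector by 0.46 without overlap, but TET1-CDwt #2 was close to the higher of its clones. CYP26A1 is itself a textbook target of retinoic acid receptors. CYP26B1 was not well above background on any array, and its highest reading was -5.87 in MBD-TET1-CDwt #10, against -7.42 in #3.

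RARB, a nuclear receptor for retinoic acid, was above background in every line by both probes. A_24_P3249 read -3.97 and -3.03 in empty vector, -3.39 and -3.93 in TET1-CDwt, -3.77 and -3.22 in MBD-TET1-CDwt, and -3.21 and -3.75 in MBD-TET1-CDmut. A_33_P3305749 read -4.83 and -3.42 in empty vector, -4.56 and -5.16 in TET1-CDwt, -4.17 and -4.21 in MBD-TET1-CDwt, and -4.28 and -4.60 in MBD-TET1-CDmut. MBD-TET1-CDwt overlapped with empty vector by both probes, with differences of 0.01 and -0.07, and of the gaps between 2 clones of a construct the one in empty vector was the widest by both probes.

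RARRES1 and RARRES2, named for their response to retinoids, were not well above background in any line. RARRES1 readings were -8.03 to -7.79 on slide 1 and -7.59 to -7.50 on slide 2, all below the limit of measurement. Slide 2 held both fusions, so slide and the presence of the MBD cannot be told apart here. RARRES2 readings lay between -7.87 and -7.30. For these genes, as for CYP26B1, the arrays show only that any signal was below the limit of measurement.

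A probe was kept for counting where both clones of some construct gave a signal well above background. Thus 9 probes of 6 genes were kept, and 4 probes were dim throughout. Against empty vector, 1 of the 9 probes kept, CRABP1 A_33_P3326483, was at least 2-fold higher by size in MBD-TET1-CDwt and 0 were lower. Of all probes tested, 1.23% were higher and 0.985% were lower. Against MBD-TET1-CDmut the count was also 1, with 1.29% of all probes higher, and against TET1-CDwt it was 1, with 1.08% of all probes higher. None of the 9 probes kept was counted in TET1-CDwt or in MBD-TET1-CDmut against empty vector, where 0.914% and 0.772% of all probes were counted in either direction. In MBD-TET1-CDwt, 3 of the 9 probes kept lay above both empty vector clones and 2 lay below both, where 13.7% and 17.2% of all probes did. Since CRABP1 was chosen for this difference, nothing is read from these counts. The comparisons share their empty vector or MBD-TET1-CDwt arrays and are not independent.

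The wider pathway was described with 82 further genes in 8 roles, none of them among the 9, of which 67 probes of 54 genes could be tested. With limma's adjusted p over all 22530 probes, 0 rose and 0 fell in any of the 5 comparisons. The share of all probes called in either direction was 0.115% for MBD-TET1-CDwt against empty vector, 0.102% against MBD-TET1-CDmut, and 0.115% against TET1-CDwt. It was 0% for TET1-CDwt and 0% for MBD-TET1-CDmut against empty vector. At an unadjusted p under 0.05, 5 of the 67 probes were higher and 2 were lower in MBD-TET1-CDwt against empty vector, where 2.84% and 3.76% of all probes were. Against MBD-TET1-CDmut 4 were higher and 2 lower, beside 3.28% and 3.56% of all probes, and against TET1-CDwt 2 were higher and 2 lower, beside 2.56% and 2.18%. For TET1-CDwt against empty vector 0 were higher and 1 lower, beside 0.652% and 1.85%, and for MBD-TET1-CDmut against empty vector 1 was higher and 1 lower, beside 0.861% and 1.82%. The list had a median of 0.07 for MBD-TET1-CDwt minus empty vector, beside -0.02 over all probes tested. At 2-fold by size against empty vector, 3 probes were higher and 2 were lower, beside 1.23% and 0.985% of all probes. Against MBD-TET1-CDmut, 3 were higher and 1 was lower, beside 1.29% and 1.09% of all probes.

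Proteins of retinol uptake and transport held 4 of the 5 probes counted by size against empty vector. Of the 6 probes tested in this role, 2 were higher (RBP7 and RBP4) and 2 were lower, both of the gene STRA6. RBP7, which binds retinol inside cells, read -7.20 and -5.73 in empty vector, -7.27 and -6.89 in TET1-CDwt, -4.22 and -1.83 in MBD-TET1-CDwt, and -7.75 and -6.87 in MBD-TET1-CDmut. Apart from both MBD-TET1-CDwt clones, 1 of the 6 other arrays was well above background. RBP7 was at least 5.68-fold higher than in MBD-TET1-CDmut and at least 7.41-fold higher than in TET1-CDwt. Empty vector #1 was dim and #2 was measured, so the measured difference from empty vector of 3.44 ± 0.81 (SE), with an adjusted p of 0.447 by limma, became 2.75 with the dim reading at its floor, and the 2 MBD-TET1-CDwt clones lay far apart.

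RBP4, the carrier of retinol in blood, read -5.24 and -5.31 in empty vector, -5.59 and -5.30 in TET1-CDwt, -4.43 and -4.00 in MBD-TET1-CDwt, and -5.42 and -5.73 in MBD-TET1-CDmut. Both MBD-TET1-CDwt clones were above all other lines, by 1.06 ± 0.23 (SE) from empty vector, with an adjusted p of 0.401 by limma. STRA6, the membrane receptor for RBP4, had 2 probes that were lower. A_33_P3307495 read -3.19 and -3.24 in empty vector and -4.43 and -4.12 in MBD-TET1-CDwt, with an adjusted p of 0.642 by limma. Both MBD-TET1-CDwt clones were below all other lines, but TET1-CDwt #5 was close, at -4.05. TET1-CDwt #2 read -3.05, and MBD-TET1-CDmut read -3.57 and -3.27. A_33_P3307500 read -2.47 in empty vector #1 but -5.03 in #2, and it overlapped with the -4.82 and -5.64 of MBD-TET1-CDwt.

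NR2F1, an orphan nuclear receptor induced by retinoic acid in many cells, read 2.86 and 3.18 in MBD-TET1-CDwt and 1.79 and 2.06 in empty vector, a difference of 1.10 with an adjusted p of 0.745. TET1-CDwt reached 2.62 and MBD-TET1-CDmut 2.49, so NR2F1 was highest in MBD-TET1-CDwt by a small margin. AKR1B10, a reductase of retinal, was not well above background in MBD-TET1-CDwt. By A_24_P129341 it read -4.37 and -4.53 in MBD-TET1-CDmut, at least 2.13-fold higher, with an adjusted p of 0.249 by limma. This probe was also well above background in TET1-CDwt #5, at -4.99. The other AKR1B10 probe, A_23_P93641, was well above background in TET1-CDwt #5 alone, at -5.27. In empty vector AKR1B10 read -5.81 and -5.75 by A_24_P129341, of which only #2 was well above background. Its measured difference of -1.22 in MBD-TET1-CDwt, the largest of its role, had an adjusted p of 0.744, and no fold is given because the dim readings at their floors reach the level of empty vector. EGR1, an immediate early gene, was lower than in empty vector in MBD-TET1-CDmut by 2.09-fold, with an adjusted p of 1.00, and its TET1-CDwt clones were 2.35 apart.

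In the remaining 5 roles, the largest differences of MBD-TET1-CDwt from empty vector did not reach 2-fold. ALDH1A3, which makes retinoic acid, differed by 0.87 but read -2.33 in #3 and 0.10 in #10. The receptor RARG differed by 0.58, the coactivator CREBBP by 0.67, FABP5, a fatty acid-binding relative of CRABP1, by 0.28, and CYP2S1, a cytochrome that can oxidize retinoic acid, by -0.23. Their adjusted p-values by limma lay between 0.690 and 0.922. FABP5 read 3.30 in #3 but 2.31 in #10, the latter below the 2.65 and 2.40 of empty vector. CREBBP read 0.57 in #3 and -0.06 in #10, both above the -0.43 and -0.41 of empty vector.

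**Figure D1:**
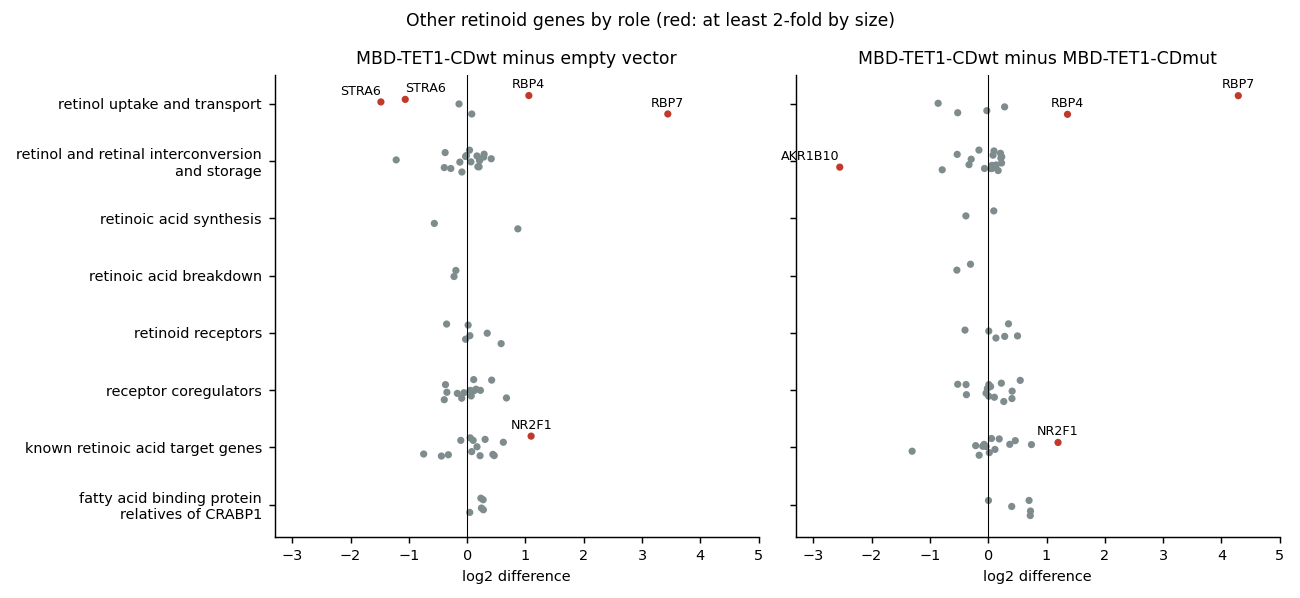
Log2 differences of the 67 tested probes of the wider retinoid list by role (horizontal axis, log2 difference; 1 point per probe), against empty vector and against MBD-TET1-CDmut. Red points are at least 2-fold by size, and none passed limma's adjusted threshold: RBP7 lies at 3.44 and 4.29, and RBP4 at 1.06 and 1.36.

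CRABP1 shared its pattern with genes outside the retinoid pathway. By Pearson's r over the 8 arrays with A_33_P3326483, the nearest genes were DMRTB1 (r = 1.00), MEIOC (0.999), TDRD9 (0.998), SOHLH2 (0.996), PRSS21 (0.994), and SOX17 (0.993). Of 22530 probes, 31 had r over 0.95, and 37 gave a signal well above background in both clones of MBD-TET1-CDwt and nowhere else. These r values describe 2 arrays against 6. DMRTB1, MEIOC, TDRD9, and SOHLH2 are known from germ cells, PRSS21 from the testis, and SOX17 from endoderm. All 6 genes were higher in #10 than in #3, by 0.66 to 1.60, an order that follows from their selection by r with a CRABP1 probe that had it. In the retinoid list the nearest were RBP4 (0.947) and RBP7 (0.923).

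The genes beside CRABP1 on chromosome 15 were compared by their order in RefSeq. On the side of lower coordinates, the adjacent SKIC8 differed from empty vector by -0.03, but the next, DNAJA4, read -3.23 and -3.75 in MBD-TET1-CDwt and between -6.73 and -5.51 elsewhere. DNAJA4, a co-chaperone, was higher than in empty vector by 2.36, with an adjusted p of 0.108 by limma. ACSBG1, an acyl-CoA synthetase and the third gene, read -7.92 and -5.19 in empty vector, the first of them not well above background, and -5.09 and -3.64 in MBD-TET1-CDwt. Its measured difference of 2.19 (adjusted p = 0.755 by limma) became 1.14 with that dim reading raised to the floor of its array, whereas DNAJA4, also dim in 1 empty vector array, remained at 2.34. On the other side, IREB2, HYKK, and PSMA4 differed from empty vector by -0.27 to 0.11.

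**Figure D2:**
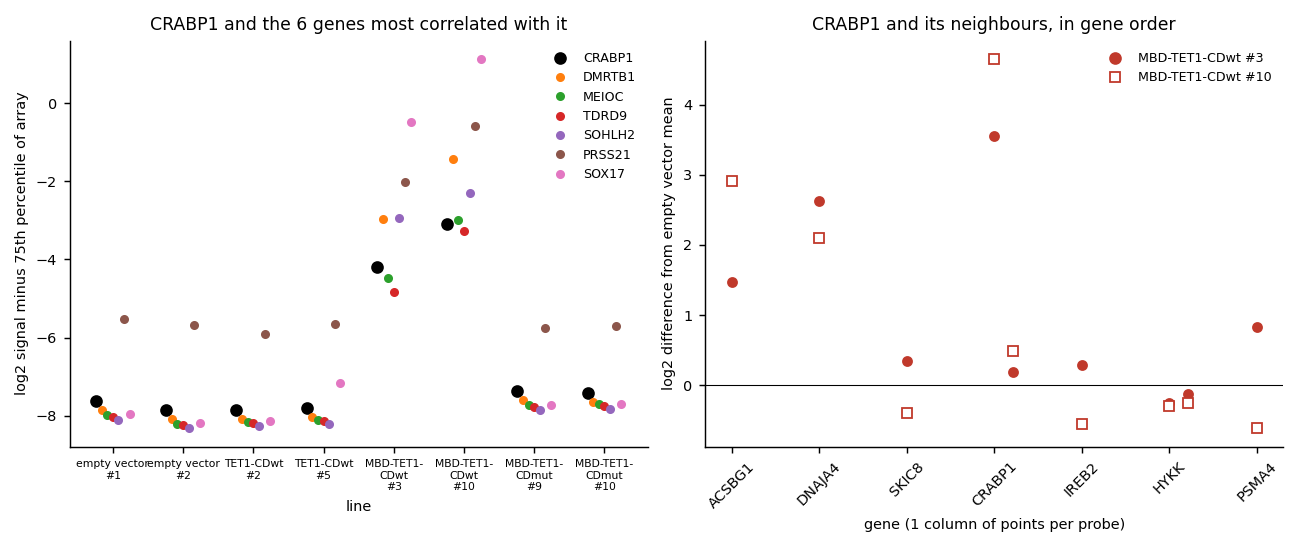
Left, signal of CRABP1 A_33_P3326483 and of the 6 genes most correlated with it in each line (vertical axis, log2 signal minus the 75th percentile; horizontal axis, line). Right, log2 difference of each MBD-TET1-CDwt clone from the empty vector mean for CRABP1 and its neighbours in gene order, as measured. DNAJA4 lies above 2 in both clones, ACSBG1 #3 falls to 0.42 when the dim empty vector reading is raised to its floor, and the genes on the other side lie below 1.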

How the data were processed

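The authors deposited the intensity that Agilent Feature Extraction calls its processed signal (version 10.7.3.1 per the file headers, 9.5.1 per the submitters' notes), which is linear and background-subtracted, without scaling between arrays. Control spots were removed, as were 213 to 269 spots per array flagged as outliers, spots of a probe were averaged on the log2 scale, and the array's 75th percentile was subtracted. A percentile over spots was used in a first version and changed to one over probes after values had been seen. Of 34071 probes, 74.5% carried a gene symbol through RefSeq (GRCh38.p14, used for names, gene order, and promoter windows). Probes with a signal well above background in both clones of some group (22530) were tested with limma (version 3.58.1, R 4.3.3) with 4 group means over 8 arrays, 4 residual degrees of freedom, and Benjamini-Hochberg adjustment. The fit was tested on simulated independent values without slide differences, so that test says nothing about slide.

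Probes were counted by size at 2-fold, with a dim signal raised to the floor of its array, the lowest signal there that was well above background. The 9 genes, the lists, and the rules were chosen with earlier results of these data known. Named are the 9 genes, the 6 genes most correlated with the CRABP1 probe bright only in MBD-TET1-CDwt, 3 neighbours on each side, TET1 and MBD2, and, from the wider list, genes counted or called and the largest difference of each role. The 2 arrays per group limit the precision. Python 3.11.15, numpy 2.4.6, pandas 2.3.3, and matplotlib 3.10.9 were used. Alternatives are given in the closing section. RT-PCR, bisulfite sequencing, and LNCaP experiments were not analysed here.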

Additional observations from a re-analysis of the deposited data

How the results depend on the processing

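For CRABP1 (A_33_P3326483), quantile normalization and median scaling gave 3.75 to 4.14 in the comparisons of MBD-TET1-CDwt with the other constructs, and leaving out each clone in turn gave 3.55 to 4.65 against empty vector, 3.20 to 4.30 against MBD-TET1-CDmut, and 3.63 to 4.73 against TET1-CDwt. With dim signals at the floor the differences were 2.27, 1.88, and 2.27. The planned normexp correction reversed 2 of them, to -0.81 against empty vector and -0.28 against MBD-TET1-CDmut, and gave 0.93 against TET1-CDwt. It was run on the median spot signal, since the mean is not in the files, and its background estimate was -1321 for empty vector #2 and -240 for MBD-TET1-CDmut #10, against -4.21 to 3.51 on the other 6 arrays; the maximum likelihood version failed on the same 2 arrays (-1435 and -246). Those arrays held the spots farthest below local background. Local background subtraction with an offset of 50, added after seeing the data because of this failure, kept the direction but gave 0.71, 0.55, and 0.97, since CRABP1's own intensity is below 50.

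Genes counted by size numbered 1 against each of the 3 constructs. Normexp gave 2 (both lower) against empty vector, 0 against MBD-TET1-CDmut and TET1-CDwt, and 6 lower in TET1-CDwt against empty vector, and the median difference of all probes was then -0.38 in the first comparison and -0.43 in the last. The offset of 50 gave 0 in all 3, as did a 5-fold threshold. Leaving out a clone gave 0 to 1 in TET1-CDwt and 0 to 1 in MBD-TET1-CDmut against empty vector, where RARB was counted without empty vector #1 or without TET1-CDwt #2.

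Over all probes, MBD-TET1-CDwt differed at 26 from empty vector, 23 from MBD-TET1-CDmut, and 26 from TET1-CDwt. These counts were 0, 0, and 0 with normexp, 2, 2, and 1 with the offset of 50, 10, 11, and 15 without a filter, 0, 0, and 0 for probes above background on all 8 arrays, 2, 0, and 0 with only the groups compared, and 15, 10, and 9 with a trend. They ranged from 8 to 97, 3 to 143, and 10 to 76 when a clone was left out, and leaving out any 1 of the 8 clones moved at least 1 of them by over 1.5 times; the highest counts came without MBD-TET1-CDwt #3 (97, 75, 76) or #10 (94, 143, 58), and the lowest without empty vector #2 (8), either MBD-TET1-CDmut clone (3), or TET1-CDwt #5 (10). TET1-CDwt against empty vector gave 0 to 2 and MBD-TET1-CDmut against empty vector 0 to 1, and 1 with only the groups compared. The wider retinoid list had 0 probes called in each of the 85 fits and comparisons. The series value table was identical to the scanner intensities and gave no separate value. No paired analysis was possible because the groups compared share at most 1 clone number, and a number only names a clone.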
